A study of Mus musculus with 6 samples.

Results

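The genes described here are 10 of the 55538 features in a single-cell RNA count table from mouse peritoneal cells, listed by name because their products handle iron and heme or defend cells from oxidants. They are Hmox1, Blvrb, Slc40a1, Fth1, Ftl1, Slc11a1, Tfrc, Gclm, Srxn1 and Txnrd1, and all 10 were found in the table. The study asked how resident peritoneal macrophages respond when they engulf apoptotic cells, and how that response depends on the receptor MerTK. Peritoneal cells of C57BL/6J mice and of MerTK -/- mice on that background, aged 8 to 12 weeks, were plated for 1 hour, rinsed so that adherent cells stayed, and sequenced with droplet-based chemistry in 6 libraries. The groups were MerTK +/+ and MerTK -/- cells, each given a media change, or apoptotic cells (ACs) for 2 hours or for 6 hours, with 1 library per group. Each library pooled the cells of several mice, so no replicate animal can be told apart within it. The study's methods name the MerTK -/- allele MerKD, the genotype is that of the mice and so of every cell class, the media change was timed to the 6-hour groups, and the ACs were UV-treated Jurkat cells, a human T cell line. The number from 1 to 6 that ends each cell barcode was not tied to a group by any label, so no value below is given for a genotype or a time point, and every comparison is between cell classes.

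Macrophages that clear dead cells and aged red cells take up iron bound in heme. Heme oxygenase opens the heme ring and frees its iron, which the cell stores in ferritin, moves out of the phagosome or exports through ferroportin. Free iron promotes the formation of reactive oxygen species, and macrophages meet these with glutathione, thioredoxin and peroxiredoxins. The transcription factor NRF2 drives many genes of these defences together with Hmox1 and the ferritin genes. Iron regulatory proteins act on the messenger itself: in iron-poor cells they bind a short hairpin, the iron-responsive element (IRE), where it blocks translation from a 5′ UTR and stabilizes the RNA from a 3′ UTR.

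The IRE sequences are shown because they divide the genes of iron handling by the end of the messenger that carries the hairpin. The search, on the GENCODE transcripts of GRCm38, asked for a bulged C, a stem of 5 paired bases and the loop CAGTGN, and the capitals mark the bulged C and the loop, with T in place of U. Of 21877 protein-coding genes, 271 (1.24%) held the element in 1 transcript per gene, and 4 of the 10 genes did, with 7 elements among them. It lay in the 5′ UTR of Fth1 (chr19:9982732-9982760, plus strand), Ftl1 (chr7:45459779-45459807, minus strand) and Slc40a1 (chr1:45925465-45925493, minus strand).
Fth1 5′ UTR: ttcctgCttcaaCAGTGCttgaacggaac
Ftl1 5′ UTR: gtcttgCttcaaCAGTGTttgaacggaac
Slc40a1 5′ UTR: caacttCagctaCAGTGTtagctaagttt
In Tfrc all 4 elements lay in the 3′ UTR on the plus strand, at chr16:32631219-32631247, chr16:32631598-32631626, chr16:32631663-32631691 and chr16:32631710-32631738, in this order.
Tfrc 3′ UTR, element 1: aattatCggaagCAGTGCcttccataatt
Tfrc 3′ UTR, element 2: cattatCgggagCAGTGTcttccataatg
Tfrc 3′ UTR, element 3: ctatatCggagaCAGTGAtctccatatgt
Tfrc 3′ UTR, element 4: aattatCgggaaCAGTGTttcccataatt
A match is a description of the letters. UMIs count messengers, so translation through these elements was not measured.

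The promoter windows are shown for the letters of the antioxidant response element, the site that NRF2 binds with small MAF proteins. RefSeq windows on GRCm38.p6, from 250 bases before to 50 after each start, were searched on both strands for TGACNNNGC and for TGAGNNNGC, which differ at the fourth base, so that no match counted for both. They held TGACNNNGC in 12.4%, TGAGNNNGC in 17.6% and either in 27.8% of 32851 windows. For 8 of the 10 genes a window was in the table, 13 windows in all, and 5 of these 8 genes held either form. A gene counted if any of its windows held a match, so this count per gene is unlike the shares per window. Hmox1 and Slc40a1 had no window in it. The windows below hold the matches before the start, with the match in capitals as it reads on the gene's strand. All 5 genes lie on the plus strand, and the windows are at chr3:122245413-122245441 for Gclm, chr2:152105469-152105497 and chr2:152105356-152105384 for Srxn1, chr10:82859104-82859132 for Txnrd1, chr7:27447899-27447927 for Blvrb and chr1:74375141-74375169 for Slc11a1. The Txnrd1 match lies inside the annotated gene (chr10:82833951-82897712), before a start that is not the gene's first base.
Gclm: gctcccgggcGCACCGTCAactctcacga
Srxn1, near the start: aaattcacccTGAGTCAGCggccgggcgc
Srxn1, farther upstream: tctactgagaGCCGACTCAtcctctctgg
Txnrd1: ctggatttttGCTTTGTCAttctgacacg
Blvrb: tgactcctccGCCTACTCAtgctctttcc
Slc11a1: tgtgaaattgTGAGCATGCcctcagtgat
The other letters of these windows are not shown, and no binding was measured.

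Cells were classed by a few marker genes, none of which is among the 10. Macrophages had at least 2 UMIs (captured RNA molecules) of Csf1r, Adgre1 and Fcer1g together, B cells at least 4 of Cd79a and Cd79b, and T/NK cells at least 2 of Cd3d, Cd3e and Nkg7. Of 7665 kept cells, 2773 were macrophages, 3101 were B cells and 667 were T/NK cells, and 153 of the T/NK cells (22.9%) were also in the B cell class. The 6 libraries gave 225 to 690 macrophages each, with a median depth between 2861 UMIs per cell in library 6 and 6247 in library 1. Only 28 barcode sequences occurred in more than 1 library. Levels are given as CPM, the UMIs of a gene divided by all UMIs of the class and scaled to 1e6. Intervals of levels, shares and ratios are exact 95% intervals that cover counting error only, and no p-value is given because the libraries could not be assigned to groups and cells are not replicates.

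On GRCm38 the genes lie apart from each other on 8 chromosomes, each annotated as protein-coding. Hmox1 is at chr8:75093621-75100589, Slc40a1 at chr1:45908068-45926523, Fth1 at chr19:9980598-9985098, Ftl1 at chr7:45457944-45459884, Tfrc at chr16:32608920-32632794 and Gclm at chr3:122245557-122270732. Blvrb is at chr7:27447978-27466144, Slc11a1 at chr1:74375195-74386062, Srxn1 at chr2:152105516-152111376 and Txnrd1 at chr10:82833951-82897712.

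Hmox1, which encodes heme oxygenase 1, had 2678 CPM in macrophages over all libraries (2651 to 2706). Its levels in libraries 1 to 6 were 1674, 1769, 985, 4379, 5272 and 2158 CPM. Libraries 4 and 5 stood highest and library 3 lowest, and the counting intervals of these 3 overlapped with those of no other library. At least 1 Hmox1 UMI was found in 88.5% of macrophages (87.2% to 89.6%), and in 74.8% after every cell had been thinned to 1500 UMIs. Blvrb, the biliverdin reductase that acts on the next product of heme breakdown, had 362, 324, 258, 290, 246 and 168 CPM in libraries 1 to 6. Its order was a different one, with library 1 highest and library 6 lowest.

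Slc40a1, which encodes the iron exporter ferroportin, was hardly captured, with 68 UMIs in the 2773 macrophages and a UMI in 1.69% of them (1.25% to 2.25%). Libraries 4 and 5 supplied 35 and 21 of these UMIs, at 10.3 and 16.2 CPM. The other libraries had 1 to 4 UMIs each and at most 2.57 CPM. Of the 10 genes it alone missed the mean level, 5 CPM, that a feature needed to enter the background of each comparison.

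The ferritin subunits were the most abundant of the 10 in UMIs. Fth1, the heavy subunit that oxidizes iron for storage, took 10.1% of all macrophage UMIs, with 110320, 106255, 81628, 108642, 107427 and 61217 CPM in libraries 1 to 6. Library 6 was lowest, and libraries 1, 2, 4 and 5 lay close together. Ftl1, the light subunit, had 21426, 25298, 28027, 32219, 35043 and 28234 CPM, lowest in library 1 and highest in library 5. The number of Fth1 UMIs per Ftl1 UMI therefore spanned a wider range than Fth1 itself, from 5.15 in library 1 (5.11 to 5.19) to 2.17 in library 6 (2.14 to 2.19). Ftl1 values are uncertain, because 3 annotated Ftl1 pseudogenes held 15.4% of the UMIs of Ftl1 and its copies in macrophages and 17.2% in B cells. The pseudogenes listed for Fth1 held at most 0.0188% in both classes.

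Slc11a1 encodes NRAMP1, which moves iron and manganese out of the phagosome, and mice of the C57BL/6 family carry a form of this protein that does not function. Its messenger had 283, 254, 318, 335, 328 and 343 CPM in libraries 1 to 6, the narrowest range of the 10 genes, with the highest library at 1.35 times the lowest. Tfrc, the receptor that brings transferrin-bound iron into the cell, was low in macrophages, at 10.1, 18.9, 10.8, 15.9, 20.01 and 34.0 CPM. Library 6 was highest, and 6.82% of macrophages had a Tfrc UMI (5.91% to 7.82%).

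Gclm, Srxn1 and Txnrd1 encode the regulatory subunit of glutathione synthesis, sulfiredoxin, which restores oxidized peroxiredoxins, and thioredoxin reductase 1. Gclm had 380, 283, 113, 912, 978 and 368 CPM in macrophages of libraries 1 to 6. Srxn1 had 464, 448, 433, 1113, 1189 and 744 CPM, and Txnrd1 had 1106, 992, 654, 2036, 1866 and 848 CPM. In each of the 3 genes libraries 4 and 5 were the highest and library 3 the lowest, as for Hmox1. Among the 8 genes that averaged 50 CPM or more over the libraries, 5 had a highest library at least 2-fold over the lowest (Hmox1, Blvrb, Gclm, Srxn1 and Txnrd1), while 36.6% of 2613 features at that level did and the median over them was 1.79-fold. The spread was largest for Gclm, at 8.67-fold, and Hmox1, at 5.35-fold. Library number stands for an unassigned group and for a library preparation at once, and these cannot be told apart here.

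**Figure D1:**
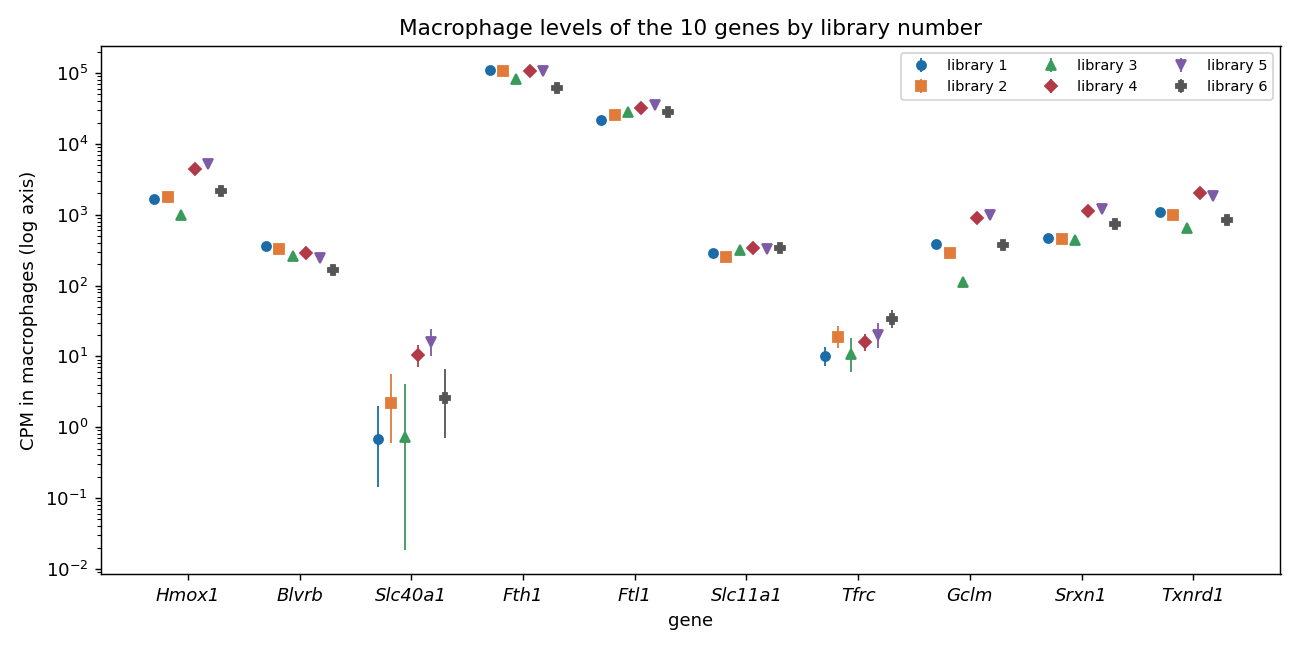
CPM of each of the 10 genes in macrophages (log axis), with 1 point per library number and exact 95% Poisson intervals. Libraries 4 and 5 lie highest for Hmox1, Slc40a1, Ftl1, Gclm, Srxn1 and Txnrd1, and Slc11a1 spans only 254 to 343 CPM.

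Most of the 10 genes were far more abundant in macrophages than in lymphocytes. Against B cells, 9 of the 10 were at least 2-fold higher in macrophages and 1, Tfrc, was at least 2-fold lower. Over all 9432 features with a mean of 5 CPM, 43% passed 2-fold either way, 19.4% higher and 23.6% lower in macrophages, with a median log2 ratio of -0.16, where the 10 genes had a median of 3.99. Against T/NK cells 9 were higher and Tfrc lay within 2-fold, where 44.8% of 9663 features passed, 18.6% higher and 26.2% lower, with a median log2 ratio of -0.24 and one of 3.63 for the 10 genes. Slc40a1 is among the 9 in both counts although it did not pass the CPM minimum.

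Hmox1 had 55.1 CPM in B cells and 79.2 CPM in T/NK cells, 48.6-fold and 33.8-fold below macrophages. Blvrb was 13.1-fold higher in macrophages than in B cells, with a log2 ratio of 3.71 (3.57 to 3.85), and 7.65-fold higher than in T/NK cells. Slc40a1 had 1 UMI in B cells, a macrophage to B cell log2 ratio of 6.63 with a wide interval (4.11 to 11.96), and none in T/NK cells. Set against a floor of 3 UMIs in that class, Slc40a1 was 5.65-fold higher in macrophages. The interval of its log2 ratio began lower, at 2.16, and at 1.24 without the cells that were also in the B cell class.

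Fth1 was 15.2-fold higher in macrophages than in B cells and 10.6-fold higher than in T/NK cells, although nearly every cell of each class had an Fth1 UMI. Ftl1 differed less, by 7.85-fold and 7.59-fold. B cells held 1.90 Fth1 UMIs per Ftl1 UMI (1.88 to 1.92) and T/NK cells 2.65 (2.59 to 2.70), against 3.69 in macrophages (3.67 to 3.70). The macrophage value was above that of B cells within each of the 6 libraries, and library 1 had the highest ratio in all 3 classes.

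Slc11a1 was 39.02-fold higher in macrophages than in B cells, at 307 against 7.86 CPM. Srxn1 and Txnrd1 exceeded B cells by 16.6-fold and 17.2-fold and T/NK cells by 19.4-fold and 13.6-fold. Gclm was 13.8-fold and 11.4-fold higher. These 7 genes and Hmox1 were higher in macrophages than in B cells within all 6 libraries, and the highest B cell library lay below the lowest macrophage library for each of them.

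The size of these folds depended on how the lymphocytes were classed, though the direction did not under the alternatives run. With stricter marker limits, under which lymphocytes had no UMI of the 3 macrophage markers, the log2 ratio to B cells was 7.55 for Hmox1 and 8.71 for Slc11a1, in place of 5.60 and 5.29, and it was 4.74 for Srxn1 and 4.80 for Txnrd1. Cells thinned to 1500 UMIs before they were classed gave 7.004 for Hmox1 and 7.504 for Slc11a1, and 3.09 for Blvrb. Against T/NK cells the ratio of Hmox1 was 7.81 with the stricter limits, 5.90 without library 1 and 4.31 without the cells that were also in the B cell class, in place of 5.08. Without these cells it was 2.34 for Blvrb, 2.81 for Fth1 and 3.15 for Slc11a1. Without library 1 it was 4.16 for Gclm, 4.41 for Txnrd1 and 4.56 for Slc11a1.

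Tfrc went the other way against B cells. B cells had 60.5 CPM (57.2 to 64.0), against 16.4 CPM in macrophages (14.3 to 18.7), and the T/NK class had 32.3 CPM (26.6 to 38.9). In B cells its library values were 51.7, 49.98, 68.3, 31.5, 61.9 and 168 CPM. Macrophages lay below B cells within all 6 libraries, although the lowest B cell library was under the highest macrophage library. Macrophages were therefore lower than B cells by a log2 ratio of -1.88 (-2.10 to -1.68). The ratio to T/NK cells, -0.98 (-1.31 to -0.64), rested on the 153 cells that were also in the B cell class. Without them 19 of 111 Tfrc UMIs were left in 514 T/NK cells, at 10.4 CPM, and the ratio turned to 0.65 (-0.03 to 1.41), while that to B cells was -1.89. Tfrc is also a gene of red cell precursors, and B cells of libraries 3 and 6, which had its highest B cell levels, held 934 and 2286 CPM of 6 red cell markers, while macrophages of any library held at most 4.45 CPM. These UMIs came from few cells, since only 9 B cells had any such UMI, and without all cells that had one the Tfrc log2 ratio was -1.88. When cells were thinned to 1500 UMIs before they were classed, Tfrc counts were small and the ratio to B cells was -0.48 (-1.08 to 0.13), with 54 UMIs in macrophages and 44 in B cells.

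**Figure D2:**
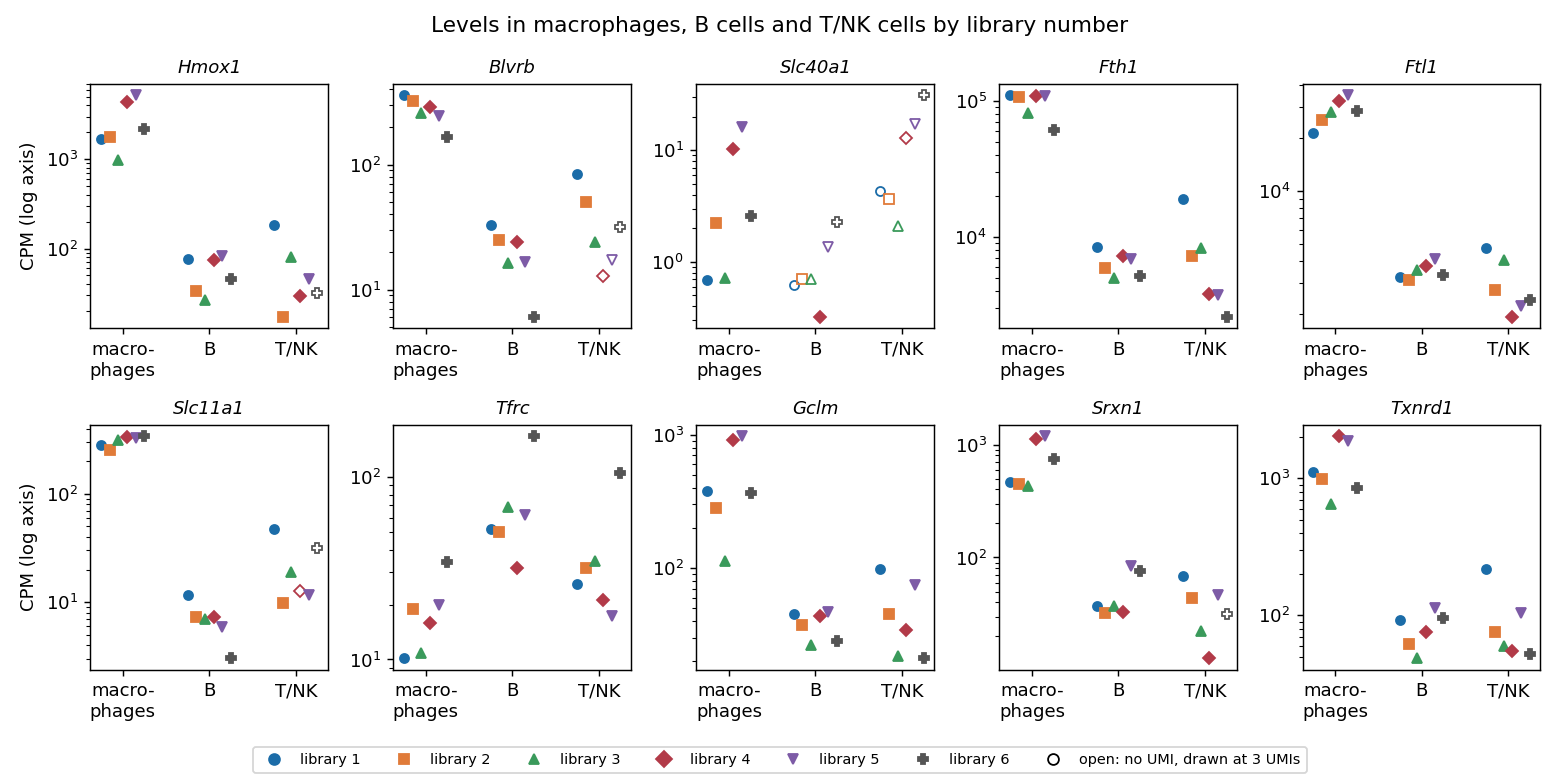
CPM of each gene (log axis) in macrophages, B cells and T/NK cells, 1 point per library number. Open symbols mark classes without a UMI, drawn at the level that 3 UMIs would give. Tfrc is the panel in which B cells lie above macrophages.

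Free RNA, or a macrophage caught in the same droplet (a doublet), can give lymphocytes UMIs of genes that they do not use. The lymphocyte levels were therefore set beside those of the macrophage markers Csf1r and Adgre1, which also served to class the macrophages. No upper limit on macrophage markers was set for the lymphocyte classes. Without the cells called as doublets, the log2 ratio to B cells was 6.16 for Hmox1 and 5.72 for Slc11a1, in place of 5.60 and 5.29. In B cells Csf1r was at 2.49% of its macrophage level (2.19% to 2.82%) and Adgre1 at 2.33% (1.90% to 2.83%), with Fcer1g, the third of the markers, at 2.83% (2.60% to 3.07%). Hmox1, at 2.06% (1.94% to 2.18%), and Slc11a1, at 2.56% (2.17% to 3.004%), were at that level over all libraries, so no expression by B cells is read from their UMIs. By library this did not always hold, as Hmox1 was at 2.70% (2.21% to 3.27%) in library 3 and 2.13% (1.62% to 2.74%) in library 6, above Csf1r at 0.76% and 0.269%, while its intervals there overlapped those of Fcer1g. Over all libraries Txnrd1 at 5.81%, Srxn1 at 6.02%, Fth1 at 6.56%, Gclm at 7.26%, Blvrb at 7.64% and Ftl1 at 12.7% each had an interval above those of all 3 markers. This too did not hold in each library. In library 4 the intervals of Srxn1, at 2.98% (2.43% to 3.62%), and Txnrd1, at 3.74% (3.27% to 4.25%), overlapped that of Adgre1, at 3.44% (2.29% to 4.98%). An Hmox1 UMI was found in 11.8% of B cells, at a median depth of 5561 UMIs, and in 4.31% after thinning.

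In T/NK cells the markers were at 6.50% (Csf1r), 6.43% (Adgre1) and 9.39% (Fcer1g, 8.41% to 10.5%) of their macrophage level. Hmox1 was at 2.96% over all libraries (2.61% to 3.33%). In library 3, which had the most T/NK cells, it was at 8.24% (6.75% to 9.97%), beside 5.06% for Csf1r, 6.89% for Adgre1 and 6.58% for Fcer1g, so it was not below the markers in each library. Srxn1, Slc11a1 and Txnrd1 lay at 5.14%, 6.65% and 7.38%. Blvrb and Ftl1 were higher over all libraries, at 13.1% and 13.2%, with intervals above those of all 3 markers. This did not hold in each library. In library 3 the interval of Blvrb, at 9.29% (6.33% to 13.2%), overlapped those of all 3 markers, and libraries 4, 5 and 6 had no Blvrb UMI. In library 1 the interval of Ftl1 (21.4% to 22.9%) overlapped those of Adgre1 (14.4% to 30.9%) and Fcer1g (16.1% to 22.4%). Fth1, at 9.47% (9.36% to 9.57%), lay above the intervals of Csf1r (5.36% to 7.81%) and Adgre1 (4.76% to 8.50%) and within that of Fcer1g. The interval of Gclm, at 8.78% (7.46% to 10.3%), overlapped those of all 3 markers. Library 1 had the highest value for each of the 8 genes and for Csf1r and Adgre1, at 11.03% to 25.8%. Library 6, with 24 T/NK cells, had no UMI of Hmox1, Blvrb, Slc11a1 or Srxn1 there.

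**Figure D3:**
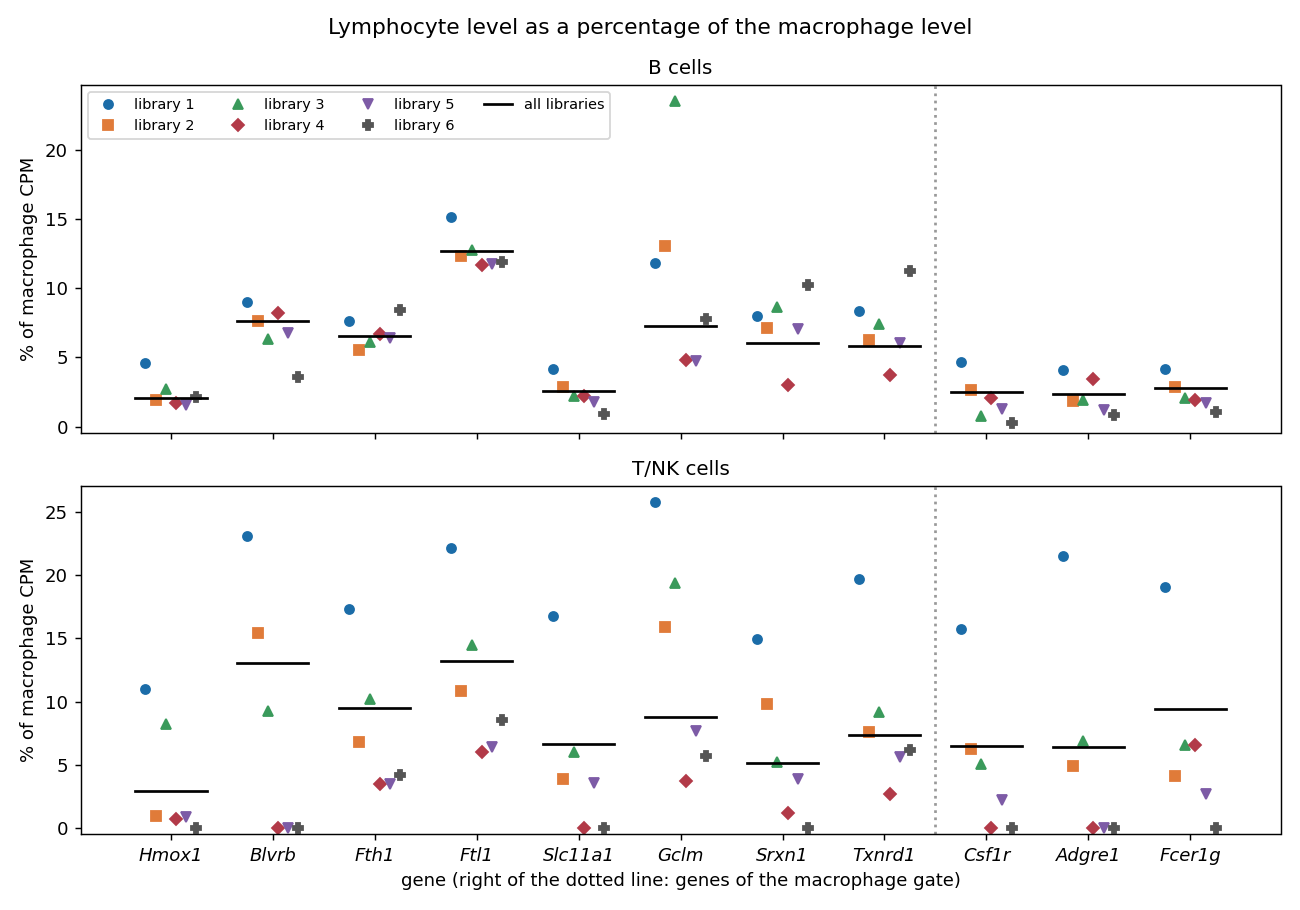
Level in B cells and T/NK cells as a percentage of the macrophage level in the same library (points) and over all libraries (bars), for 8 of the 10 genes and for 3 macrophage markers right of the dotted line. In B cells Hmox1 and Slc11a1 sit with the markers, at 2.06% and 2.56%, and Ftl1 is highest at 12.7%.

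Among macrophages, cells with a UMI of Gata6, the factor of large peritoneal macrophages, were compared with cells with a UMI of Irf4, a factor of the monocyte-derived small ones. There were 635 Gata6 and 255 Irf4 macrophages, 22 cells with both were left out, and 1861 had neither. Fth1, the ferritin heavy chain, had 111550 CPM in Gata6 and 52137 CPM in Irf4 macrophages, a 2.14-fold difference. In Gata6 macrophages of libraries 1 to 6 its level was between 72788 and 115225 CPM with a median of 112687, and in Irf4 macrophages between 38246 and 84144 CPM with a median of 47436. Fth1 was higher in Gata6 macrophages within all 6 libraries, by log2 ratios of 0.45 to 1.28, although the ranges across libraries overlapped. Ftl1 did not follow, with 26517 and 26874 CPM and a log2 ratio of -0.02 (-0.04 to 0.00), so that Gata6 macrophages held 4.21 Fth1 UMIs per Ftl1 UMI and Irf4 macrophages 1.94.

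Of the 10 genes, 2 were at least 2-fold higher in Gata6 macrophages (Fth1 and Slc40a1) and 1 was at least 2-fold lower (Tfrc). Of 8825 features 20.6% were 2-fold apart, 8.6% higher and 12% lower, with a median log2 ratio of -0.10, and the 10 genes had a median of 0.41. Slc40a1 rested on 20 UMIs against 1, a log2 ratio of 2.66 (0.01 to 8.03), and 1.51 without library 4. Tfrc had 33 UMIs in Gata6 and 38 in Irf4 macrophages, which were 8.67 and 31.7 CPM, and a log2 ratio of -1.87 (-2.59 to -1.16), lower in 5 of 6 libraries. With cells thinned before they were classed only 5 and 1 Tfrc UMIs were left, and the ratio had the other sign, at 1.26 (-1.90 to 6.83).

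The redox genes divided within the 2-fold limit. Srxn1 was lower in Gata6 macrophages within all 6 libraries, by a log2 ratio of -0.43 over all cells (-0.53 to -0.32), and in library 3 by -1.67. Gclm and Txnrd1 were higher in 5 of 6 libraries, and library 3 was the exception for both. Their log2 ratios over all cells were 0.83 (0.67 to 1.00) and 0.66 (0.56 to 0.76). The libraries supplied unequal shares of the 2 classes, and the median of the library ratios was smaller, at 0.40 for Gclm and 0.34 for Txnrd1. Hmox1 was higher in 3 libraries and lower in 3, with 2429 and 1914 CPM over all cells and library ratios from -0.53 to 1.18. Blvrb also split evenly, with a log2 ratio of 0.48 over all cells and library ratios from -0.35 to 1.12, and Slc11a1 was lower in Gata6 macrophages in 4 of 6 libraries (log2 ratio -0.36).

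With all libraries pooled, macrophages with neither marker lay nearer to Gata6 than to Irf4 cells in Fth1, Gclm and Txnrd1. They had 103036 CPM of Fth1, 563 CPM of Gclm and 1406 CPM of Txnrd1, against 528 CPM of Gclm and 1295 CPM of Txnrd1 in Gata6 cells and 297 and 821 CPM in Irf4 cells. Their Hmox1, at 2914 CPM, was above both.

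Library 6 supplied 113 of the 255 Irf4 cells but only 55 of the 635 Gata6 cells, and it had the lowest Fth1 level in both classes. Without library 6 the Fth1 log2 ratio was 0.95. With the mean of the library levels it was 0.96 and with stricter marker limits 0.99, all just under 2-fold and in the same direction. Markers of other cells differed between the classes too. Siglecf, the 1 eosinophil marker of 3 that was seen, had 156 CPM in Irf4 and 0 UMIs in Gata6 macrophages. Prg2 and Epx were at 0 in both. The 3 platelet markers (Ppbp, Pf4 and Itga2b) summed to 3251 CPM in Gata6 cells (2111 to 4805 by library) and 1032 CPM in Irf4 cells (502 to 2146). This sum is not split by gene here and is not read as platelet content. The dendritic cell markers summed to 7.62 and 28.4 CPM, with Xcr1 at 0 in both and Flt3 at 0 in Gata6 cells. Their part in the results was not tested.

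Cells with a UMI of Trib3 or Ddit3, target genes of the integrated stress response, differed little in the 10 genes. None of the 10 was 2-fold apart between the 625 such macrophages and the 2148 others, where 1.83% of 8615 features were, 0.418% higher and 1.42% lower, at a median log2 ratio of -0.11 for all features and 0.05 for the 10 genes. Hmox1 had 3196 CPM in cells with a Trib3 or Ddit3 UMI and 2492 CPM in the others. Its log2 ratio was 0.36 over all cells (0.33 to 0.39) and above 0 in 6 of 6 libraries, at 0.45 to 0.54 in libraries 1 to 3 and 0.02 to 0.11 in libraries 4 to 6. Txnrd1 (log2 ratio 0.32, 0.27 to 0.36) and Ftl1 (0.18, 0.17 to 0.19) were also higher in 6 of 6 libraries.

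Slc11a1 was lower in cells with a Trib3 or Ddit3 UMI in 6 of 6 libraries, by a log2 ratio of -0.14 (-0.24 to -0.04), but among all macrophages with a Gata6 UMI, those with an Irf4 UMI included, the ratio was 0.20. The other genes changed direction between libraries: Fth1 was higher in 5 of 6 (log2 ratio 0.07, and -0.03 with thinned cells), Srxn1 in 4 (0.18), Blvrb in 3 (-0.06), and Gclm in 1 (0.03). Slc40a1 and Tfrc had 14 and 48 UMIs in the smaller class, with log2 ratios of -0.47 (-1.44 to 0.39) and -0.42 (-0.91 to 0.05). Cells with a Trib3 or Ddit3 UMI were deeper, with a median of 5377 against 4197 UMIs. With every cell thinned to 1500 UMIs before it was classed, the log2 ratio was 0.40 for Hmox1 (0.31 to 0.49), 0.26 for Txnrd1 (0.12 to 0.40) and 0.24 for Ftl1 (0.21 to 0.27), about as large as without thinning. Among Gata6 macrophages alone Hmox1 had 3150 CPM in the 161 cells with such a UMI and 2158 CPM in the 474 without, and Txnrd1 1610 and 1176 CPM.

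**Figure D4:**
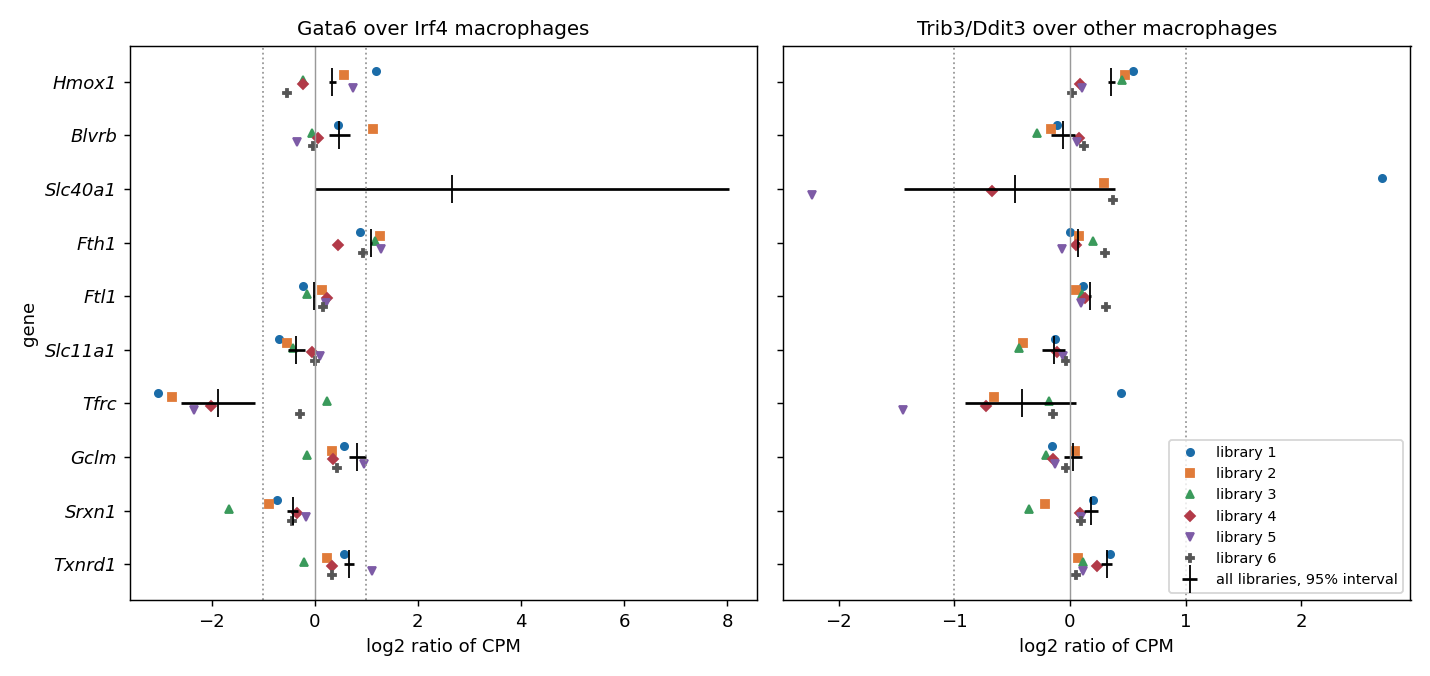
Log2 ratio of CPM for Gata6 over Irf4 macrophages (left) and for macrophages with over without a Trib3 or Ddit3 UMI (right), by library number (points, where both classes had a UMI) and over all libraries (black, with exact 95% intervals). Dotted lines mark 2-fold. Fth1 is right of 0 and Srxn1 left of 0 in all 6 libraries on the left, and the 2 axes differ in scale.

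The wider pathways were read from 4 lists that hold none of the 10 genes. Of 25 genes of NRF2 and glutathione metabolism, 20 were at least 2-fold higher in macrophages than in B cells and none was lower, with a median log2 ratio of 2.52 where that of all features was -0.16. Slc7a11, which imports cystine for glutathione, had 1398 CPM in macrophages and 24.3 CPM in B cells. Gsr, glutathione reductase, had 265 and 8.75 CPM, and Nqo1, a quinone reductase, 26.1 and 0.895 CPM. Against T/NK cells 20 of the 25 were higher and none lower. Of all features 19.4% and 18.6% were higher in macrophages in these comparisons. Between Gata6 and Irf4 macrophages 3 were higher and 4 lower, near the 20.6% of all features that passed either way. Gsr and Mgst1, a microsomal glutathione transferase, were higher in Gata6 cells in 6 of 6 libraries (log2 ratios 1.42 and 2.51), and Gss, glutathione synthetase, was lower in 6 of 6 (-1.57).

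Of 24 genes of iron handling, 15 passed 5 CPM against B cells, of which 8 were higher and 1 lower in macrophages, and against T/NK cells 9 were higher and 1 lower, where 43% and 44.8% of all features passed either way. Trf, the plasma iron carrier transferrin, had 492 CPM in macrophages and 6.96 CPM in B cells, and Hfe, a partner of the transferrin receptor, 33.8 and 1.99 CPM. Between Gata6 and Irf4 macrophages 14 passed, of which 5 were higher in Gata6 cells, with Trf at 598 and 224 CPM, and none lower, where 8.6% of all features were higher and 12% lower. The ferroxidase Cp, which works with ferroportin, had 101 UMIs in Gata6 and 4 in Irf4 cells. These were 26.5 and 3.34 CPM, a log2 ratio of 2.99 with a wide interval (1.59 to 4.90).

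Of the 22 genes of heme metabolism, 15 passed against B cells, with 5 higher and 3 lower, and 6 were higher and 3 lower against T/NK cells. Of all features 43% and 44.8% passed either way, with 19.4% and 18.6% higher in macrophages and 23.6% and 26.2% lower. Among the higher list genes were Slc48a1, which moves heme out of the lysosome (277 and 35.6 CPM), and Hp, the hemoglobin scavenger haptoglobin (187 and 3.83 CPM). Enzymes of heme synthesis went both ways, as Alas1, the first of them, was higher than in B cells (151 and 12.1 CPM, 6 of 6 libraries), while Alad (log2 ratio -1.83) and Ppox (-1.52) were lower. Hp had macrophage levels of 333, 252, 53.5, 137, 93.1 and 12.8 CPM in libraries 1 to 6. Of 13 that passed between Gata6 and Irf4 macrophages, 1 was higher in Gata6 cells (Hp, log2 ratio 2.29) and 4 lower. Of all features 8.6% were higher and 12% lower. Among the 4 lower list genes were Blvra, the other biliverdin reductase (-1.92, lower in 6 of 6 libraries), and Alas1 (-1.40, lower in 6 of 6).

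Of 20 genes against peroxide and superoxide, 18 passed in each comparison, with 8 higher and 2 lower in macrophages than in B cells and 9 and 3 against T/NK cells, where 43% and 44.8% of all features passed either way. Prdx1, one of the peroxiredoxins, had 5664 CPM in macrophages and 349.7 CPM in B cells. The other peroxiredoxins went both ways against B cells. Prdx2 (log2 ratio -0.80) and Prdx3 (-1.19) were lower in macrophages, and Prdx4 (0.53), Prdx5 (3.64) and Prdx6 (2.10) were higher. Between Gata6 and Irf4 macrophages 5 were higher, beside 8.6% of all features, and none lower, with Sod2, the mitochondrial superoxide dismutase, at 1150 and 326 CPM. Prdx1 was lower in Gata6 cells within all 6 libraries, short of 2-fold (log2 ratio -0.86). Between macrophages with and without a Trib3 or Ddit3 UMI, 1 gene of the 4 lists was 2-fold apart. This was Sesn2, a stress-induced gene, with 38.4 and 9.38 CPM.

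Within macrophages thinned to 1500 UMIs, several pairs of the 10 genes were found in the same cells more often than independent detection within a library would give. Odds ratios were taken within libraries and combined over them, so that differences between libraries do not enter. Of 28 pairs with a value, 12 had a 95% interval above 1, none lay below and 16 held 1. Pairs of other genes were not taken, so whether this count is particular to the 10 genes was not tested. Hmox1 was found with Txnrd1 at an odds ratio of 2.41 (1.99 to 2.93), with Gclm at 2.32 (1.89 to 2.85) and with Srxn1 at 2.02 (1.67 to 2.44). The pairs among Gclm, Srxn1 and Txnrd1 were at 1.78 to 2.18. Blvrb and Slc11a1, seen in 31.2% and 35.1% of thinned cells, were closer to 1 with Hmox1, at 1.18 (0.96 to 1.44) and 1.12 (0.92 to 1.36). Slc40a1 was seen in 22 thinned cells, of which 20 had Gclm, 20 had Hmox1 and 21 had Txnrd1. Its odds ratios had wide intervals, at 5.26 (1.27 to 21.8) with Gclm, 1.35 (0.29 to 6.37) with Hmox1 and 3.84 (0.53 to 27.9) with Txnrd1. Fth1 and Ftl1 were in nearly every cell and gave no ratio. Cells of a library share its source and are no replicates, so these intervals describe the cells at hand.

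**Figure D5:**
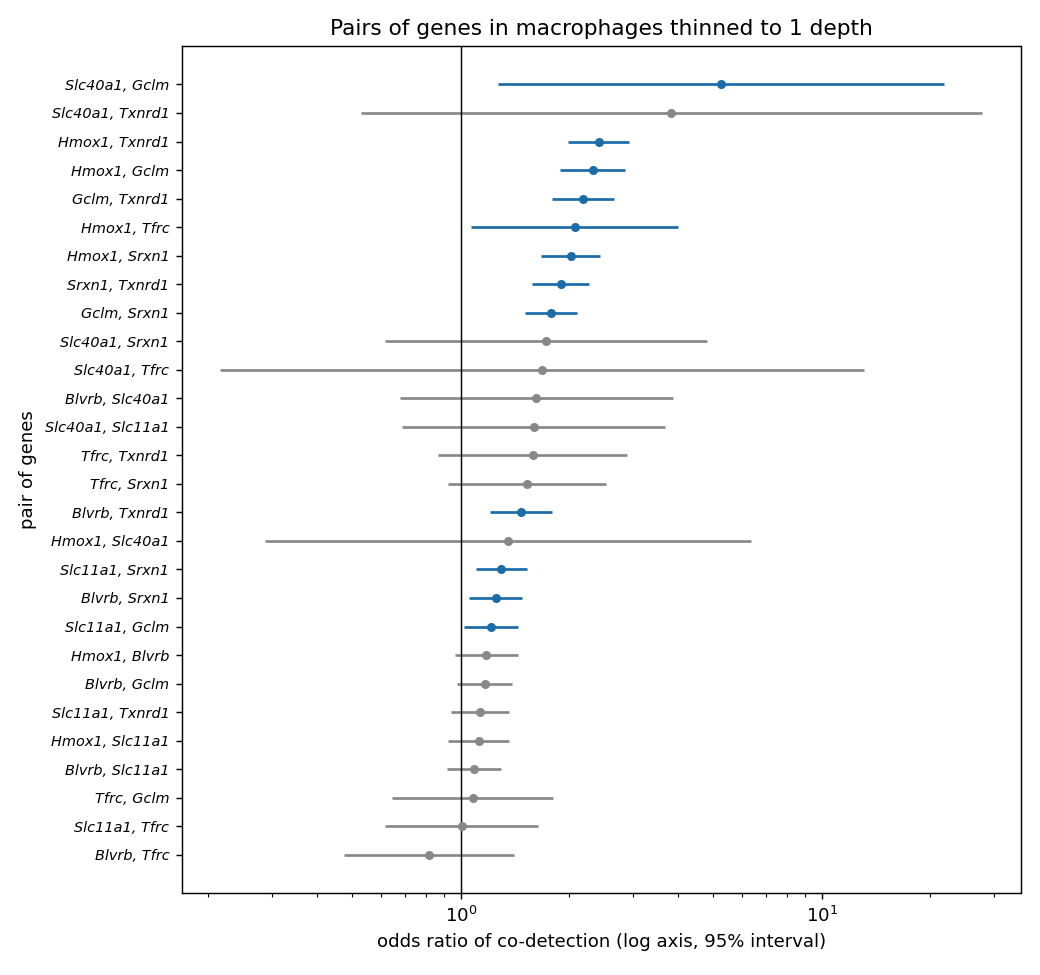
Odds ratio that a macrophage with a UMI of one gene also has a UMI of the other (log axis, 95% interval), for 28 pairs in 2690 cells thinned to 1500 UMIs and combined over libraries. Intervals above 1 are blue. The 6 pairs among Hmox1, Gclm, Srxn1 and Txnrd1 lie between 1.78 and 2.41.

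The genes whose levels ran most nearly alike across 30 units (5 cell classes in each of 6 libraries) were sought among 9546 features, by Pearson r of log2(CPM + 1) as a description. The units share libraries and depth, and most of their spread is that between macrophages and lymphocytes. Nearest to Hmox1 were Cpd (0.97), Riok3 (0.97) and Slc7a11 (0.97), and nearest to Srxn1 were Gabarapl1 (0.97), Arl8a (0.97) and Hmox1 itself (0.97). Txnrd1 ran closest to Pgd (0.99), Sqstm1 (0.98) and Abcc1 (0.97), and Gclm to Sqstm1 (0.96), Taldo1 (0.95) and Txnrd1 (0.95).

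Fth1 was nearest to Ninj1 (0.98), Cybb (0.98) and App (0.98), and Ftl1 to Ctsd (0.99), Cd300lb (0.98) and Hexa (0.98). The profile of Slc11a1 followed C5ar1 (0.99), C1qa (0.99) and Clec4d (0.98), and that of Blvrb followed Itgam (0.98), Fam20c (0.97) and Cmtm3 (0.96). Tfrc stood apart from the rest, next to Nop58 (0.90), Sms (0.89) and Gpr137b-ps (0.88). For Slc40a1, at a mean of 2.41 CPM, the nearest were Gxylt1 (0.77), Cat (0.74) and Prdx6 (0.74).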

How the data were processed

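Cells were profiled with droplet-based 5′ chemistry. Per the study's methods, reads were aligned with STAR to the human and mouse genomes (hg38 and mm10) in Cell Ranger, and mouse reads were kept. The version differs between sources, and the submitters' processing notes name Cell Ranger 2.2 and Seurat 3.0. The authors deposited raw UMI counts of 55538 features in 7760 barcodes, without normalization. Reads of human transcripts that also match mouse genes were not separated here.

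The 10 genes and the lists were chosen with earlier results of these data known. Cells with at least 500 genes, a log10 gene to log10 UMI ratio of at least 0.8 and at most 10% mitochondrial UMIs were kept, which left out 95 barcodes. Macrophages had at least 2 UMIs of their markers, at most 2 of Cd79a and Cd79b and at most 1 of Cd3d, Cd3e and Nkg7. Of the kept cells 1277 fell in no class. UMIs were summed over a class and divided by its total (39997437 UMIs in all kept cells). A gene was called at 2-fold in either direction, and background shares were taken over features with a mean of at least 5 CPM over both classes. Intervals were exact Poisson, conditional binomial (ratios) and Clopper-Pearson (shares), and Mantel-Haenszel for odds ratios. Where a class had no UMI, the fold was set against 3 UMIs. Named list genes were up to 4 per list and comparison with the largest ratio past 2-fold and at least 20 UMIs. Values of Alad and Ppox, of Prdx1 between macrophage subsets, and of list genes by library were added after they had been seen. So were those of Prdx2, Prdx3, Prdx4 and Prdx6 against B cells. The thinning to 1500 UMIs left out 313 kept cells. Scrublet at an expected rate of 5% called 80 cells (1.04%) as doublets, which were kept in the values given unless stated. Ratios were tested on simulated counts with known changes. Python 3.11.15, numpy 2.4.6, scipy 1.17.1 and scanpy 1.11.5 were used, with the GENCODE vM21 annotation of GRCm38. Other cell and level filters, scalings, marker limits, thinning, doublet removal and leaving out each library were tried as alternatives. Some genes of the lists are not reported here by name.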

Additional observations from a re-analysis of the deposited data

How the results depend on the processing

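Of 654 values of the 10 genes under an alternative, 636 kept their sign, and 17 values over 8 of the 39 finite ratios crossed the 2-fold line. With cells thinned to 1500 UMIs before they were classed, 5 genes were 2-fold apart between Gata6 and Irf4 macrophages in place of 3, and the Tfrc ratio reversed to 1.26 on 5 and 1 UMIs. Blvrb (1.02) and Txnrd1 (1.13) then passed 2-fold. Between macrophages with and without a Trib3 or Ddit3 UMI, 1 gene in place of 0 was 2-fold apart with the mean of library levels and 1 among Gata6 cells only, both Slc40a1 (-1.002 and -1.12). Without a minimum CPM, 6 list genes in place of 1 were 2-fold apart there. The cause was not tested. The ratio of Slc40a1 to T/NK cells, which had no UMI, is not finite and was not varied. Leaving out each library in turn gave 10 to 10 genes against B cells, 9 to 10 against T/NK cells, 2 to 4 between Gata6 and Irf4 macrophages and 0 to 0 for Trib3 or Ddit3. Gclm reached 1.04 between Gata6 and Irf4 macrophages without library 1, and Fth1 was at 0.95 without library 6. Tfrc against T/NK cells was past 2-fold without library 2, 5 or 6 (-1.02, -1.05 and -1.10), and it was 0.65 without cells in both lymphocyte classes and 3.10 thinned, on 54 and 1 UMIs. Adding pseudogene UMIs to Ftl1 and leaving out cells with a red cell marker UMI were chosen after seeing the data and moved no gene across 2-fold. No paired test was run, because the unassigned libraries are not replicates of a group. The ratios within each library are given instead. Slc40a1, and Tfrc within the macrophage subsets, rest on few UMIs, and depth limits what can be said of them.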

Other observations

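Libraries 4 and 5 held the 2 highest macrophage levels of Hmox1, Slc40a1, Ftl1, Gclm, Srxn1 and Txnrd1, and they were also the 2 highest for 10 of the 15 genes of the NRF2 and glutathione list with a mean of at least 50 CPM, beside 12.2% of 2613 features at that level. The genes given here were chosen after their values were seen. Gclc, the catalytic partner of Gclm, had 150, 145, 85.3, 373, 504 and 189 CPM in libraries 1 to 6. Slc7a11 had 1249, 1014, 710, 2039, 2021 and 951 CPM, and Sqstm1, an autophagy receptor, 1175, 1122, 799, 2308, 2093 and 1236 CPM. Prdx6, of the peroxide list, had 322, 320, 294, 803, 1053 and 460 CPM. Other defence genes had another order, as Txn1 was highest in libraries 2 and 1, Nfe2l2 in library 1, and Tkt and Glrx in library 6. Prdx5 had 2246, 2086, 1555, 1124, 906 and 443 CPM and Gpx4 318, 359, 194, 189, 155 and 101 CPM, with libraries 1 and 2 highest and library 6 lowest. Library numbers were not tied to a genotype or time point, so these are values of unassigned libraries.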
